A study of Mus musculus with 6 samples.

Results

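Genes of platelets, macrophages and other blood cells outside the red lineage were followed in whole hearts of mouse embryos at embryonic day 9.5 (E9.5). The set was named gene by gene and holds 30 genes, of which 27 had a transcript cluster annotated to them alone, out of the 14996 clusters with 1 gene on the array. A transcript cluster is the unit in which the array measures a gene, and each of the 27 genes had 1. *Gp1ba* and *Gp6*, which encode platelet receptors, had no annotated cluster and *Lyz2*, the lysozyme of macrophages, shared its clusters with *Lyz1*, so these 3 members have no value of their own.

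The hearts were dissected with the blood inside them, in pools of 4 to 6, and measured on 6 Affymetrix Mouse Exon 1.0 ST arrays. The 3 wildtype pools, without Cre, were labelled *Hic2* FL/FL and *Mesp1*+/+, although the study's methods also admit *Hic2* FL/+ embryos as wildtype. The 3 mutant pools were *Mesp1*Cre/+ and *Hic2* FL/FL, and both genotypes therefore carry the floxed allele. *Mesp1* is switched on in early mesoderm, so that heart cells and some blood cells arise from cells that had Cre, and 1 copy of *Mesp1* is lost to the knock-in. A group with Cre alone was not analysed here. *Hic2*, the deleted transcription factor gene, had log2 values of 9.35, 9.36 and 8.91 in wildtype pools and 8.27, 8.23 and 8.37 in the mutant, where values are always given in the order of replicates 1, 2 and 3. Every mutant pool thus lay below every wildtype pool (log2 difference -0.92, standard error 0.136, adjusted p = 0.228 by limma, an empirical Bayes linear model). Whether its probes lie in the deleted stretch is not stated in the sources.

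Blood forms in the yolk sac before it forms in the liver. The earliest wave yields primitive red cells, together with megakaryocytes, which shed platelets, and macrophages, some of which settle in tissues. Platelets carry chemokines and clotting factors in granules and read vessel damage through surface glycoproteins, while macrophages are marked by receptors for growth factors, antibodies and complement and by lysosomal proteins. Several of these genes are also used outside blood, *Vwf*, *Itgb3* and *Mrc1* by endothelium or other cells and *Kit* by progenitors, germ cells and pigment cells.

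Platelet genes gave clear signal on these arrays and most macrophage genes did not. A gene was taken as near background where its mean linear value was 100 or less in both genotypes, which is 6.64 on the log2 scale and the filter of the study's methods. By this measure 11 of the 27 measured members lay near background, as did 34.8% of all annotated clusters. As a second mark, the clusters of 719 olfactory receptor genes, a class that heart is not known to use, had a median of 3.72 and a 95th percentile of 6.02 over the 6 arrays, and 97.9% of them were near background by the linear value. Of the 9 platelet members 8 lay above the linear mark and all 9 were above that percentile, with *Gp5* close to it. Of the 10 macrophage members 8 were near background, and the 2 above it were *Cx3cr1*, a chemokine receptor, and *Cd68*, a lysosomal membrane protein. *Adgre1*, which encodes the F4/80 antigen of mouse macrophages, averaged 3.85 and *Ptprc*, which encodes the CD45 antigen of all white cells, 3.89, and 55.4% and 56.9% of the olfactory receptor clusters were lower. These 2 markers were thus within background. Some other members were not, since 4 of the 10 macrophage members and 4 of the 6 members shared by white cells were above the olfactory receptor percentile. The rest of both groups lay below it. The set is called by its genes here and not by a cell type.

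**Figure D1:**
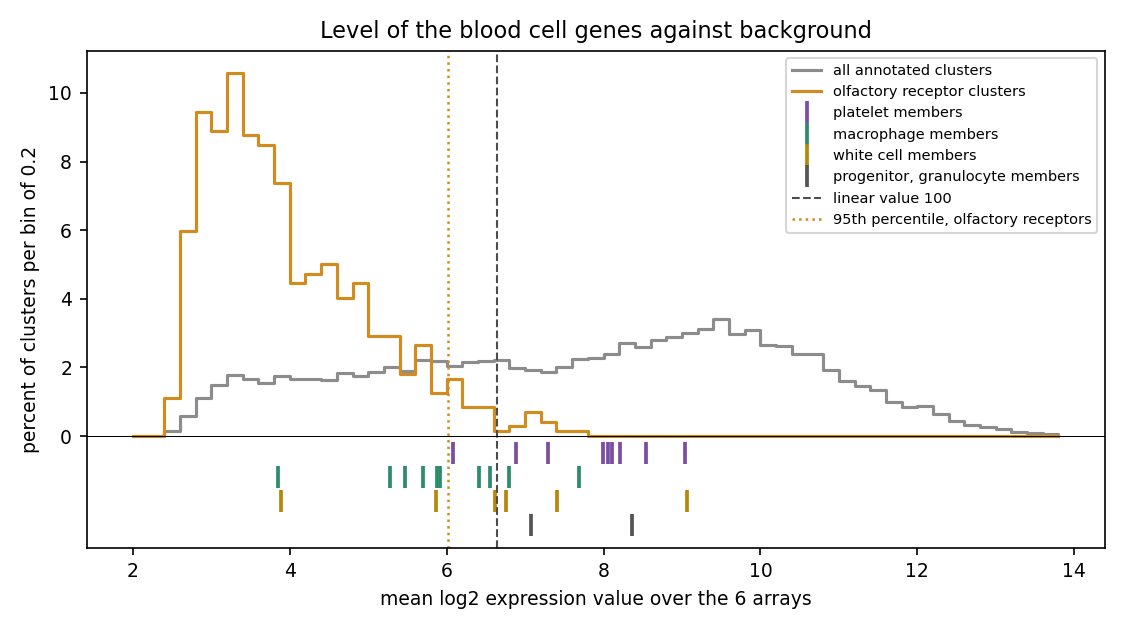
Levels of the 27 measured blood cell genes against background. The horizontal axis is the mean log2 value over the 6 arrays, the lines give the percent of clusters per bin of 0.2 for all annotated clusters (grey) and for 719 olfactory receptor clusters (orange), the ticks under the axis are the members by group, and the vertical lines mark the linear value of 100 (6.64) and the 95th percentile of the olfactory receptors (6.02). Most platelet ticks lie to the right of both lines and most macrophage ticks to the left of the linear mark.

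No member differed between the genotypes after adjustment. Of the 27 members 0 passed an adjusted p under 0.05 by limma, where 0.0437% of the 16015 annotated clusters did, and the adjusted p-values of the members ran from 0.694 to 0.996. The t-test of the study's methods was run here without their filter or fold cut, and with an adjustment that the methods do not mention. It also passed 0 members after adjustment. At an unadjusted p under 0.05 it passed *Cx3cr1* as higher and *Vwf* and *Kit* as lower. On log2 values it passed 285 of the 16015 clusters as higher and 558 as lower. At an unadjusted p under 0.05 by limma, 3 members had lower values in the mutant (*Kit*, *Mrc1* and *Vwf*) and 0 had higher ones, against 4.96% of all clusters lower and 1.91% higher. Without wildtype replicate 2, mutant replicate 1 or mutant replicate 2 the count was 1, *Kit*, and without wildtype replicate 3 it was 6, with *Ppbp*, *Gp5* and *Laptm5* added. The count of all clusters lower also moved with the array left out, so the 4.96% does not apply to these runs. After cyclic loess scaling 3 members were lower and 1, *Cd68*, was higher, with 640 clusters lower and 502 higher in all, where the values as deposited gave 795 and 306. The genotypes did not overlap for 4 members with lower mutant values (*Vwf*, *Mrc1*, *Spi1* and *Kit*), where 7.96% of all clusters were separated in that direction, and for 1 with higher values (*Cx3cr1*), where 3.42% were. Of the members 15 had a log2 difference below 0 and 12 above it, with a median of -0.02, while 64% of all clusters lay below 0 and 36% above it, with a median of -0.05. The 95% interval of the difference lay within a 2-fold change either way for 24 members and within 1.5-fold for 16, so that 11 members could differ by 1.5-fold or more. In whole hearts, fewer cells of a type and less RNA per cell cannot be told apart.

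**Figure D2:**
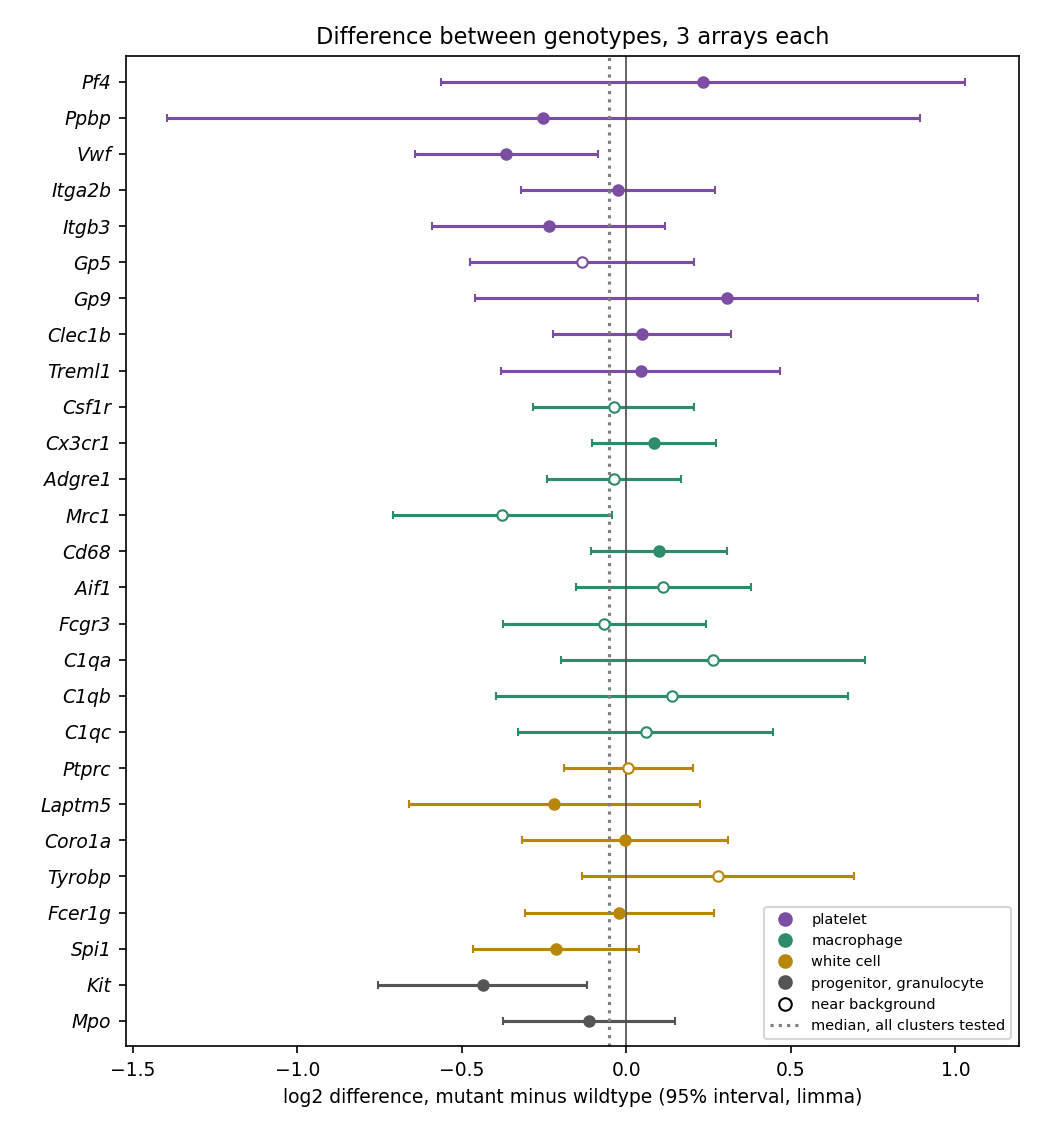
Log2 difference between mutant and wildtype for each of the 27 measured members, with the 95% interval from limma (3 arrays per genotype). Colours give the group, open circles are genes near background, and the dotted line is the median of all clusters tested (-0.05). Intervals are widest for *Ppbp*, *Pf4* and *Gp9*, and those of *Vwf*, *Mrc1* and *Kit* do not reach 0.

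The chemokines stored in platelet granules varied more between wildtype pools than between genotypes. *Pf4*, platelet factor 4, was at 8.56, 8.55 and 7.18 in the wildtype and at 8.39, 8.40 and 8.19 in the mutant. *Ppbp*, the precursor of another platelet chemokine, was at 8.56, 9.10 and 6.91 in the wildtype and at 8.20, 7.71 and 7.90 in the mutant. In both genes wildtype replicate 3 was the lowest of the 6 pools and the mutant pools lay between it and the other wildtypes. The log2 difference was 0.23 for *Pf4* (95% interval -0.56 to 1.03, adjusted p = 0.863 by limma) and -0.25 for *Ppbp* (95% interval -1.40 to 0.89, adjusted p = 0.897). Without wildtype replicate 3 these became -0.22 (adjusted p = 0.363) and -0.89 (adjusted p = 0.232), so the sign for *Pf4* turned on that pool. The standard deviation of *Ppbp* over the wildtype pools was 1.14, against 0.24 in the mutant, and it ranked 10 among the wildtype standard deviations of the 16015 clusters. That of *Pf4* was 0.79 against 0.12, at rank 47.

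The same pool was low for the receptors and the granule membrane protein that platelets carry. *Gp9*, a subunit of the receptor for von Willebrand factor, was at 8.25, 8.30 and 6.97 in the wildtype and at 8.22, 8.21 and 7.99 in the mutant. *Treml1*, a receptor of platelet granules, was at 7.47, 7.51 and 6.83 in the wildtype and at 7.27, 7.42 and 7.24 in the mutant. For both genes wildtype replicates 1 and 2 were at least as high as every mutant pool and replicate 3 was below all of them. The log2 difference of *Gp9* was 0.30 (95% interval -0.46 to 1.07, adjusted p = 0.807 by limma), and -0.13 without wildtype replicate 3. For *Treml1* it was 0.04 (95% interval -0.38 to 0.47, adjusted p = 0.958), and -0.18 without that pool. *Gp5*, another subunit of the receptor for von Willebrand factor, was near background at 6.26, 6.33 and 5.84 in the wildtype and 5.86, 6.10 and 6.07 in the mutant, with overlap. *Clec1b*, which encodes the CLEC-2 receptor of platelets, was at 6.99, 6.91 and 6.67 against 7.04, 6.81 and 6.87, again lowest in wildtype replicate 3 and overlapping (log2 difference 0.05, 95% interval -0.22 to 0.32).

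**Figure D3:**
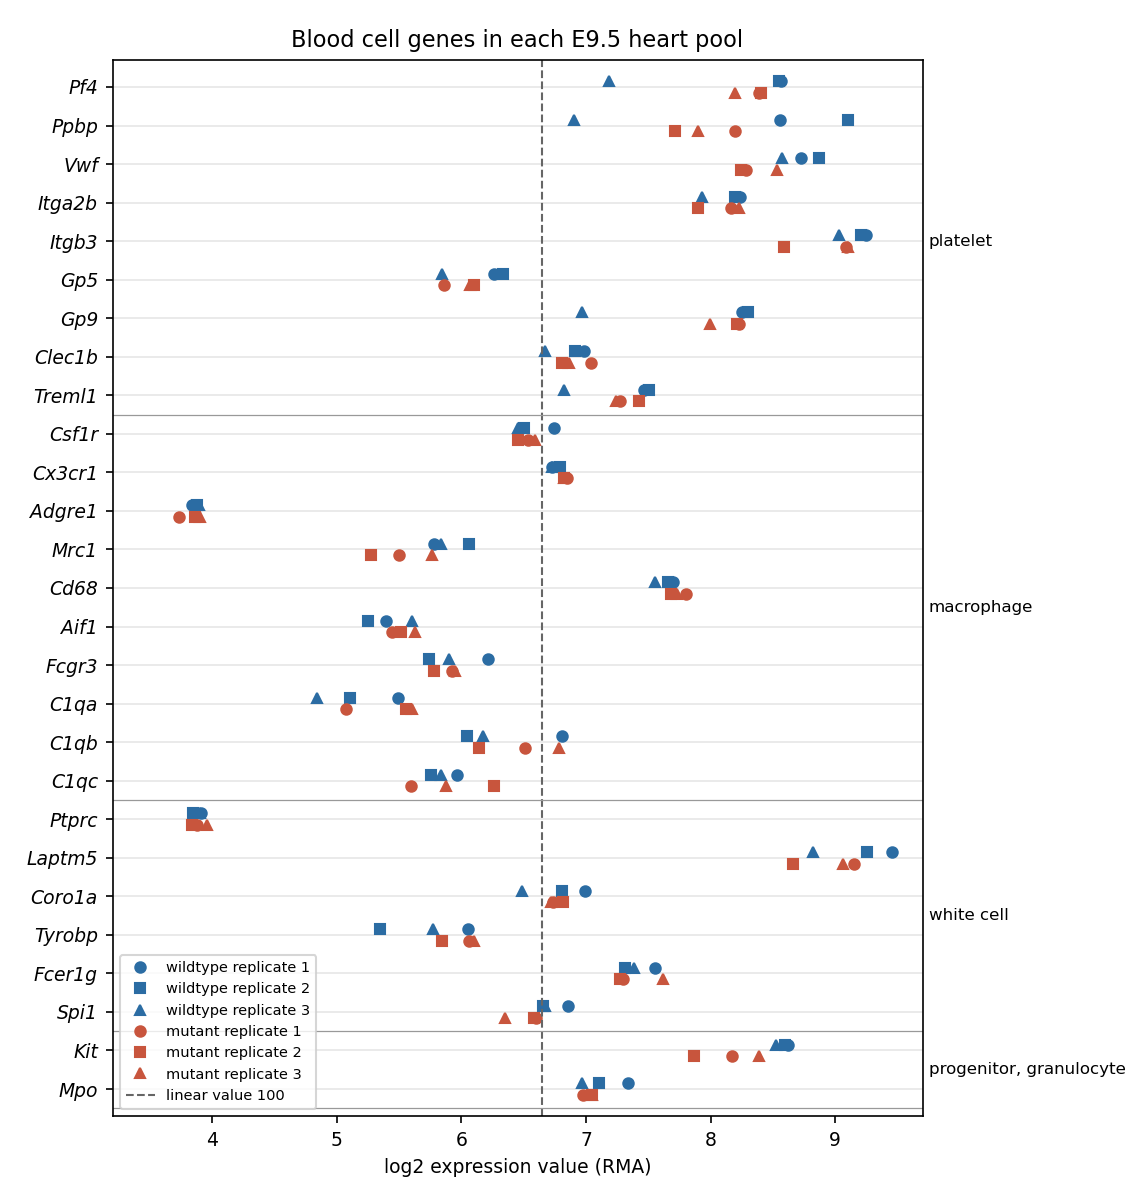
Log2 value of each measured member in each of the 6 heart pools. Blue symbols are wildtype and red symbols mutant, the shape gives the replicate number, and the dashed line is the linear value of 100 (6.64). The blue triangle, wildtype replicate 3, stands far to the left for *Pf4*, *Ppbp*, *Gp9* and *Treml1*, and the genotypes overlap for most genes.

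The integrin chains showed less of this. *Itga2b*, the alpha chain of the fibrinogen receptor and an early mark of megakaryocytes and progenitors, was at 8.24, 8.19 and 7.93 in the wildtype and 8.16, 7.90 and 8.23 in the mutant. *Itgb3*, its partner chain, was at 9.25, 9.21 and 9.03 and at 9.09, 8.59 and 9.10. The genotypes overlapped in both, with log2 differences of -0.03 (95% interval -0.32 to 0.27, adjusted p = 0.966 by limma) and -0.24 (95% interval -0.59 to 0.12, adjusted p = 0.710). The sign for *Itga2b* was positive after quantile normalisation (0.03) and cyclic loess (0.05), and positive without wildtype replicate 1 or 2 or mutant replicate 2 (0.01 to 0.07).

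Wildtype replicate 3 was the lowest wildtype pool for 9 of the 9 platelet members, where it was the lowest for 58.9% of all annotated clusters. It lay below the mean of the other wildtypes by a median of -0.46 over the platelet members and -0.11 over all clusters. Lower values of this kind than those of *Ppbp* (-1.92), *Pf4* (-1.37) and *Gp9* (-1.31) were found in 0.0125%, 0.0624% and 0.0874% of all clusters, and 2.32% were lower than *Treml1* (-0.66). A list of other megakaryocyte genes, with 16 of 24 measured, had its lowest wildtype value in replicate 3 for 16 genes, with a median of -0.51. Among these *F2rl2*, which encodes a thrombin receptor of mouse platelets, was at 8.33, 8.19 and 7.16 in the wildtype and 7.92, 7.78 and 8.41 in the mutant, and *Plek*, pleckstrin, at 9.08, 8.86 and 8.05 and at 8.86, 8.42 and 8.92. These 2 genes were chosen after their values were seen. By genotype, 2 of the 16 were higher at an unadjusted p under 0.05 by limma, against 1.91% of all clusters, and 0 were lower. The 2 were *Gfi1b* at 0.62 and *Nfe2* at 0.38, transcription factor genes of both megakaryocytes and red cells. After adjustment 0 passed, and the list had a median of 0.04.

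Red cell genes were low in the same wildtype pool, but did not follow the platelet members across all pools. Relative to each gene's mean over the 6 arrays, the median of the 22 measured erythroid genes was -0.02, -0.44 and -0.75 in the wildtype pools and 0.37, 0.13 and 0.70 in the mutant pools. The platelet members were at 0.19, 0.26 and -0.24 in the wildtype and at 0.05, -0.07 and -0.01 in the mutant. Wildtype replicate 2 was thus low for erythroid genes and high for the platelet members. Mutant replicate 3, the highest pool for erythroid genes, was not raised for the platelet members. The other megakaryocyte genes were at 0.13, 0.18 and -0.34 in the wildtype and at 0.02, -0.15 and 0.11 in the mutant. For that list replicate 3 was thus the highest mutant pool. Of the erythroid genes 17 were higher in the mutant at an unadjusted p under 0.05 by limma, against 1.91% of all clusters. After adjustment 0 of them passed, and their median log2 difference was 0.79. Of the platelet members 0 were higher at that unadjusted p, with a median of -0.03. The platelet median had no stable sign, at -0.22 without wildtype replicate 3, 0.034 and 0.075 without wildtype replicates 1 and 2, -0.058 and -0.091 without mutant replicates 1 and 3, 0.034 after quantile normalisation, 0.052 after cyclic loess and -0.31 with the erythroid median as a covariate. The difference between these lists was not tested. The part of the blood content of each pool in the platelet values was not tested either.

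**Figure D4:**
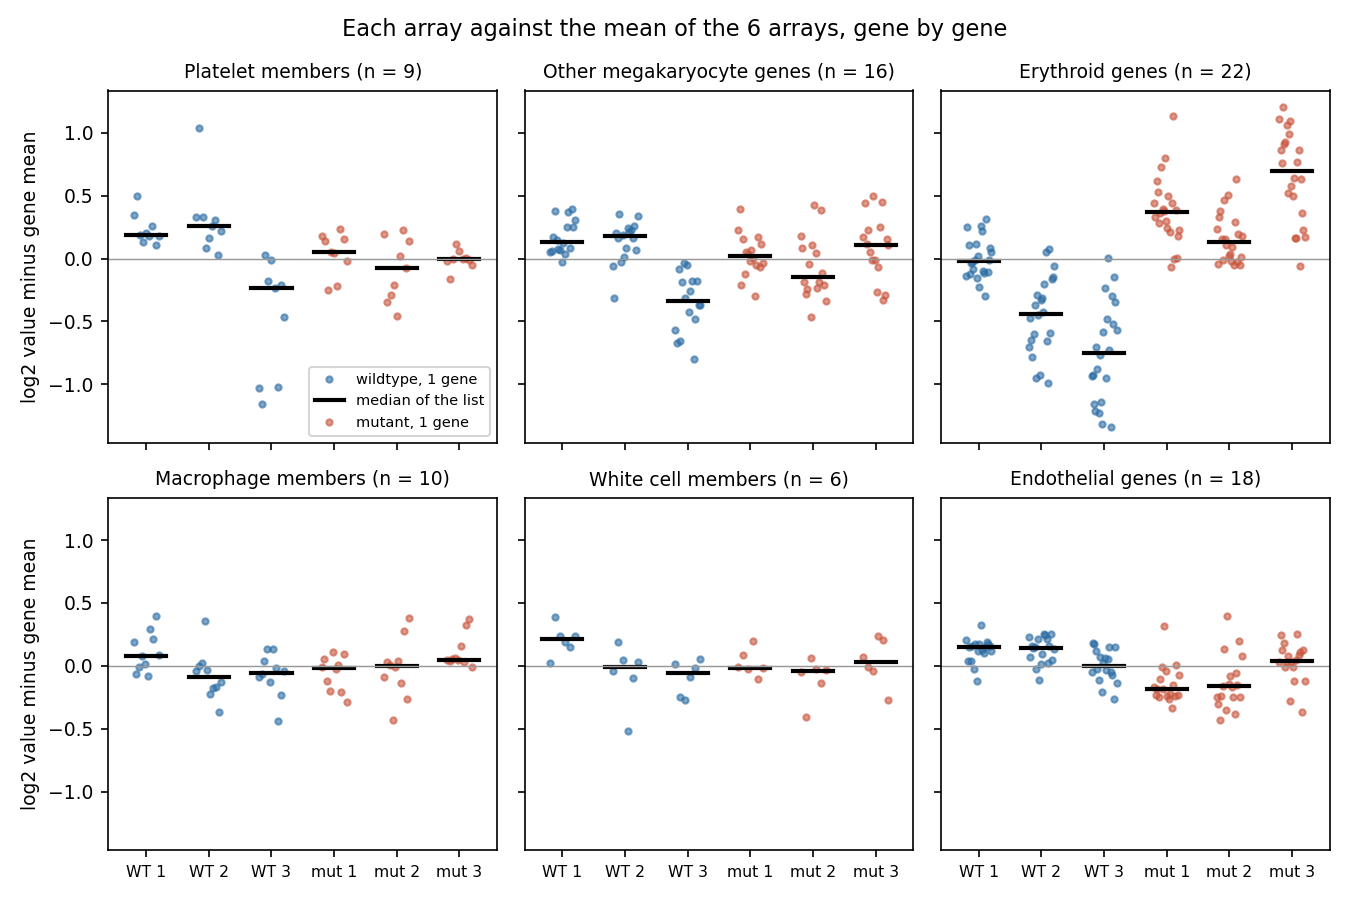
Each gene's log2 value on each array minus its mean over the 6 arrays, for 6 gene groups. Points are genes (blue wildtype, red mutant) and black bars are medians of the list. In WT 3 the bar lies at -0.24 for the platelet members, -0.34 for the other megakaryocyte genes and -0.75 for the erythroid genes, and at -0.0018 for the endothelial genes.

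The promoters of 4 platelet members are shown for their GATA and ETS letters, since factors of both families are known to drive megakaryocyte genes. These 4 lay furthest below the other wildtypes in wildtype replicate 3 and were chosen after their values were seen. The other platelet members were lowest of the wildtypes in that pool as well. Each runs from 250 bases before to 50 after the start site in RefSeq (GRCm38.p6), 5′ to 3′ on the gene's strand, and capitals mark matches on either strand. GATA matches are the letters AGATAA, with their variant AGATAG, as well as TGATAA with its variant TGATAG, and ETS matches are AGGAAG as well as CGGAAG. They are chr5:90772185-90772484 for *Pf4* and chr5:90768268-90768567 for its neighbour *Ppbp*, chr6:87777820-87778119 for *Gp9* and chr17:48359666-48359965 for *Treml1*, all on the plus strand.
Pf4: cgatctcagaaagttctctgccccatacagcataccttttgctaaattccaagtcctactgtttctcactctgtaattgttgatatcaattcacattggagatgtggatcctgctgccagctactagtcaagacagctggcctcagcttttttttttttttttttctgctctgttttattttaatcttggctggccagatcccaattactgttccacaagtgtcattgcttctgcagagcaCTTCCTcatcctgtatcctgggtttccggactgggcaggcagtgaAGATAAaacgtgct
Ppbp: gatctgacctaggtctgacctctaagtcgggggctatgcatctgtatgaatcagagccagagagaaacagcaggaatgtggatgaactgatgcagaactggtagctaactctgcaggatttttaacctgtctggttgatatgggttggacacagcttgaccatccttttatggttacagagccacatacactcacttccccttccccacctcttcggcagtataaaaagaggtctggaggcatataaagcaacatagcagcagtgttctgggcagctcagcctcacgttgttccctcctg
Gp9: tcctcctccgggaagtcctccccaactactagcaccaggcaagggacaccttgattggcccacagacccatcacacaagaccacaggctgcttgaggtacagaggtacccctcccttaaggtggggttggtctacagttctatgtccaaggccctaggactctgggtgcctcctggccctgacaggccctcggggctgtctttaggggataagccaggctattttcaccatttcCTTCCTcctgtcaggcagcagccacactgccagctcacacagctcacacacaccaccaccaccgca
Treml1: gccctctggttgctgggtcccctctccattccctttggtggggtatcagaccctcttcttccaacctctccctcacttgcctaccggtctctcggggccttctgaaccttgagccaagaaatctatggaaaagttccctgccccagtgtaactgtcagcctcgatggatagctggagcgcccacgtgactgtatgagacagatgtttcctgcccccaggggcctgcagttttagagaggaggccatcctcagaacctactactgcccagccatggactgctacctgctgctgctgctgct
*Pf4* had a GATA match and an ETS match, *Gp9* had an ETS match, and *Ppbp* and *Treml1* had neither, so no match is shared by the 4 windows. Of the 30 members 23 had a promoter entry, among them *Gp1ba*, *Gp6* and *Lyz2*, which have no expression value of their own. For members the uppermost entry of each gene was taken, while the shares of all promoters count every entry of a gene. A GATA match was present in 5 of the 9 platelet members with a promoter and in 29.8% of all 32851 promoters, and an ETS match in 5 of 9 and in 46.5%. The letters GAGGAA, the core bound by PU.1, which overlap AGGAAG, were present in 8 of 12 macrophage and white cell members, in 5 of 9 platelet members and in 28.3% of all promoters. These matches are descriptions of the letters and were not tested as sites.

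Von Willebrand factor and the receptor gene *Kit* had lower values in every mutant pool than in any wildtype pool. *Vwf*, the adhesive protein that platelets and endothelium store, was at 8.73, 8.87 and 8.57 in the wildtype and at 8.29, 8.25 and 8.53 in the mutant. The gap between the lowest wildtype and the highest mutant pool was small next to the spread within either genotype. The log2 difference was -0.37 (standard error 0.120, 95% interval -0.64 to -0.09, adjusted p = 0.694 by limma). *Kit*, the receptor for stem cell factor on blood progenitors and mast cells, was at 8.62, 8.59 and 8.53 in the wildtype and at 8.17, 7.87 and 8.39 in the mutant. The wildtype pools lay close together and the mutant pools were spread below them. The log2 difference was -0.44 (standard error 0.137, 95% interval -0.76 to -0.12, adjusted p = 0.694 by limma). *Kit* kept an unadjusted p under 0.05 whichever array was left out, whereas *Vwf* lost it without wildtype replicate 2 or mutant replicate 1 or 2, and the adjusted p of each was at least 0.214 in every alternative run.

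Most endothelial genes also lay below 0. All 18 genes of an endothelial list were above background. Of them 16 had a log2 difference below 0, where 64% of all clusters did. Their median was -0.20, against -0.05 over all clusters. At an unadjusted p under 0.05 by limma 3 were lower, against 4.96% of all clusters, and 0 were after adjustment. The 3 were *Nfatc1* (-0.36) and *Npr3* (-0.28), both used by endocardium, and *Flt1* (-0.31), a receptor gene for vascular growth factor. Relative to each gene's mean, the endothelial median was 0.15, 0.14 and -0.0018 in the wildtype pools and -0.18, -0.16 and 0.04 in the mutant pools. Mutant replicate 3 was thus the highest mutant for endothelial genes as it was for *Vwf*, *Kit* and *Mrc1*. It was also the highest mutant over all clusters, where the medians were -0.019, -0.052 and -0.0068, so this order is not particular to endothelial genes. The part of endothelium in the values of *Vwf*, *Kit* and *Mrc1* was not tested.

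Macrophage members mostly lay near background and overlapped between the genotypes, apart from *Mrc1* and *Cx3cr1*. *Csf1r*, the receptor through which macrophages are kept alive, was near background at 6.74, 6.50 and 6.46 in the wildtype and 6.54, 6.46 and 6.59 in the mutant, and the genotypes overlapped (log2 difference -0.04, 95% interval -0.28 to 0.21). *Cd68* was at 7.70, 7.66 and 7.56 in the wildtype and at 7.80, 7.68 and 7.73 in the mutant, also with overlap (log2 difference 0.10, 95% interval -0.11 to 0.30, adjusted p = 0.766 by limma). *Cx3cr1* was at 6.73, 6.79 and 6.72 in the wildtype and at 6.85, 6.82 and 6.82 in the mutant. Its mutant pools were all above its wildtype pools, by a log2 difference of 0.08 (95% interval -0.10 to 0.27, adjusted p = 0.785 by limma), and the linear mark lies just below these values.

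The mannose receptor gene *Mrc1*, which macrophages and some endothelia use, was at 5.78, 6.06 and 5.84 in the wildtype and at 5.50, 5.27 and 5.77 in the mutant. Every value was below the linear mark, and the highest mutant pool lay just under the lowest wildtype pool. The log2 difference was -0.38 (standard error 0.143, 95% interval -0.71 to -0.04, adjusted p = 0.694 by limma), and the unadjusted p was not under 0.05 without wildtype replicate 2 or mutant replicate 1 or 2. *Lyve1*, another gene of macrophages and endothelia and no member, was at 8.39, 8.84 and 8.20 in the wildtype and 7.75, 7.60 and 8.31 in the mutant, with overlap. Its log2 difference of -0.59 (standard error 0.222, adjusted p = 0.694 by limma) made it the single gene of 33 other macrophage and myeloid genes to pass an unadjusted p under 0.05 in either direction, and that list had a median of -0.03.

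The genes for the chains of complement component C1q, which macrophages secrete, lie next to each other and all lay near background. *C1qa* was at 5.49, 5.11 and 4.84 in the wildtype and 5.07, 5.55 and 5.60 in the mutant. *C1qb* was at 6.80, 6.04 and 6.17 and at 6.51, 6.14 and 6.78. *C1qc* was at 5.97, 5.76 and 5.84 and at 5.59, 6.26 and 5.88. The genotypes overlapped in each, and the order of the mutant pools differed between the chains, with replicate 3 highest for *C1qa* and *C1qb* and replicate 2 for *C1qc*. Their log2 differences were 0.26, 0.14 and 0.06, and each 95% interval included 0. Of the other macrophage members, *Aif1*, an actin-binding protein gene, had a log2 difference of 0.11, *Fcgr3*, an antibody receptor gene, -0.07 and *Adgre1* -0.04, all near background. The 10 macrophage members had a median of 0.07, which was 0.024 and 0.043 without mutant replicates 3 and 2 and -0.0010 without wildtype replicate 2. The 2 clusters shared by *Lyz1* and *Lyz2* were at 7.83, 7.68 and 7.11 and at 7.13, 6.86 and 5.96 in the wildtype, and at 7.48, 7.64 and 6.79 and at 6.48, 6.49 and 5.90 in the mutant. In both clusters replicate 3 was the lowest pool of its genotype.

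Of the genes shared by white cells 4 of 6 were above the linear mark. *Laptm5*, a lysosomal protein gene of blood cells, was at 9.45, 9.26 and 8.82 in the wildtype and 9.15, 8.66 and 9.06 in the mutant. The genotypes overlapped, with a log2 difference of -0.22 (95% interval -0.66 to 0.22, adjusted p = 0.761 by limma), and -0.40 without wildtype replicate 3. *Fcer1g*, the signalling chain shared by antibody receptors and by the platelet collagen receptor, was at 7.56, 7.31 and 7.39 in the wildtype and 7.30, 7.27 and 7.62 in the mutant, a difference of -0.02 (95% interval -0.31 to 0.27). *Tyrobp*, which encodes the adaptor DAP12, was near background at 6.05, 5.35 and 5.78 and at 6.06, 5.84 and 6.10, a difference of 0.28 (95% interval -0.14 to 0.69). Both adaptors overlapped between the genotypes, as did *Coro1a*, an actin regulator gene, at 6.99, 6.81 and 6.48 against 6.73, 6.82 and 6.72. *Ptprc* ranged from 3.84 to 3.91 in the wildtype and from 3.84 to 3.95 in the mutant.

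*Spi1*, which encodes PU.1, the transcription factor of macrophages and other white cells, was at 6.86, 6.65 and 6.67 in the wildtype and at 6.60, 6.59 and 6.35 in the mutant. The wildtype pools were at or just above the linear mark and the mutant pools just below it, with no overlap. The log2 difference was -0.21 (standard error 0.109, 95% interval -0.47 to 0.04, adjusted p = 0.694 by limma). *Mpo*, the myeloperoxidase of granulocytes and their precursors, was at 7.34, 7.11 and 6.97 in the wildtype and 6.97, 7.05 and 7.05 in the mutant, with overlap and a difference of -0.11 (95% interval -0.38 to 0.15, adjusted p = 0.791 by limma). The 6 white cell members had a median of -0.01, which ran from -0.090 without wildtype replicate 3 to 0.033 without wildtype replicate 1, and was -0.12 over the members that passed the methods' filter.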

How the data were processed

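Expression was measured in 3 wildtype and 3 mutant pools of E9.5 hearts, which the study describes as biological replicates. The deposited log2 values, made by the authors with RMA in the Affymetrix Expression Console on its core gene predictions, were taken unchanged. No software version or genome build was stated.

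All 16015 clusters annotated to at least 1 gene were fitted without an intensity filter with limma 3.58.1 (R 4.3.3), mutant minus wildtype. Benjamini-Hochberg adjustment ran over all of them, at a threshold of 0.05. Members were matched by symbol or Entrez gene identifier to a cluster annotated to them alone. The number of arrays limits precision. Members and the 8 other gene lists (megakaryocyte, macrophage and myeloid, granulocyte and mast cell, lymphocyte, progenitor, endothelial, erythroid, cardiomyocyte) were chosen with earlier results of these data known. Genes named are all members and up to 3 per other list, by lowest p, beside the exceptions stated. The fit was tested on simulated data with known changes. Plots used matplotlib 3.10.9 (Python 3.11.15).

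Alternatives comprised limma with robust variances or with an intensity trend, the methods' t-test (log2 or linear values), 2 intensity filters, the addition of unannotated clusters, 3 rescalings (median centring, cyclic loess, quantile normalisation), a block for the replicate number, the array's erythroid median as covariate, and omission of each array. The t-test ran over all annotated clusters, without the methods' filter or fold cut. Its p-values were adjusted by Benjamini-Hochberg, which the methods do not mention.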

Additional observations from a re-analysis of the deposited data

How the results depend on the processing

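With 3 arrays per genotype, the 95% interval by limma included a 1.5-fold difference for 11 of the 27 measured members. No member passed the adjusted threshold in any alternative (0 by limma and 0 by the methods' t-test). Each member had 1 cluster, so averaging the clusters of a gene changed nothing.

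The 7 clusters higher after adjustment were 0 by the methods' t-test on either scale, 0 with the erythroid covariate, 1 with unannotated clusters kept, and 1 to 3 as each array was left out. At an unadjusted p, the 306 higher were 175 with the methods' filter, 163 with a mean over 100, 657 with unannotated clusters, 502 after cyclic loess and 202 to 468 with an array left out. The 795 lower were 1199 after median centring, 2679 with the erythroid covariate and 266 to 2117 with an array left out. Members higher were 1 by the methods' t-test on either scale (*Cx3cr1*), where 285 of all clusters were higher on each scale. They were 1 after cyclic loess (*Cd68*) and 0 to 1 with an array left out (*Tyrobp* without wildtype replicate 1). The 3 lower members were 5 of 27 with the erythroid covariate, where 2679 of all 16015 clusters were lower. They were 1 to 6 with an array left out, where 266 to 2117 of all clusters were lower. With that covariate the median was -0.31 for platelet, -0.091 for macrophage and -0.19 for white cell members. With an array left out these medians ran from -0.22 to 0.075, -0.0010 to 0.087 and -0.090 to 0.033. The cause of these shifts was not tested.

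Signs turned for *Itga2b* (0.034) and *Ptprc* (-0.014) after quantile normalisation, and for *Itga2b* (0.052), *Coro1a* (0.011) and *Fcer1g* (0.025) after cyclic loess. With the erythroid covariate they turned for *Pf4* (-0.29), *Gp9* (-0.16), *Clec1b* (-0.10), *Treml1* (-0.17), *C1qa* (-0.13), *C1qb* (-0.48) and *Ptprc* (-0.058). With each array left out, differences that crossed 0 ran from -0.22 to 0.47 for *Pf4*, -0.89 to 0.20 for *Ppbp*, -0.13 to 0.53 for *Gp9*, -0.18 to 0.16 for *Treml1*, -0.045 to 0.11 for *Clec1b*, -0.12 to 0.073 for *Itga2b*, -0.094 to 0.048 for *Csf1r*, -0.074 to 0.010 for *Adgre1*, -0.17 to 0.064 for *Fcgr3*, -0.015 to 0.37 for *C1qb*, -0.12 to 0.22 for *C1qc*, -0.026 to 0.033 for *Ptprc*, -0.14 to 0.11 for *Coro1a* and -0.13 to 0.048 for *Fcer1g*.

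Deviations of same-numbered arrays correlated at 0.246, 0.013 and 0.291, and wildtype replicate 2 correlated best with mutant replicate 1 (0.219), so the numbers were not taken as pairs in this fit without a filter. Over the clusters past the methods' filter the same pairs correlated at 0.311, 0.142 and 0.458, so the size of these correlations depends on the filter. Wildtype replicate 2 again correlated best with mutant replicate 1 (0.303). With a replicate block 2 clusters were higher after adjustment, and 3 members were lower at an unadjusted p, as without it.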

Other observations

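Other blood lineages left little signal in these hearts by the linear mark. Of 15 measured lymphocyte genes 0 were above the linear mark of 100, although 7 were above the 95th percentile of the olfactory receptors. Their median log2 difference was -0.01, and 0 passed an unadjusted p under 0.05 by limma in either direction. *Cd3d*, a chain of the T cell receptor complex, averaged 4.92 in the wildtype and 4.73 in the mutant, and *Rag2*, which cuts antigen receptor genes, 3.27 and 3.48. Of 17 granulocyte and mast cell genes 5 were above that percentile and 2 above the linear mark. They had a median difference of 0.04, and 0 passed at an unadjusted p under 0.05 by limma. *Hdc*, the enzyme that makes histamine, was above the linear mark at 8.85, 8.58 and 8.49 in the wildtype and 8.45, 8.32 and 8.38 in the mutant, with no overlap between the genotypes (difference -0.26, adjusted p = 0.694 by limma). The neutrophil genes *Camp* and *Ctsg* were near background, at differences of 0.33 and -0.18.

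Of 19 progenitor genes 16 were above the mark. The list had a median difference of -0.07. At an unadjusted p under 0.05 by limma, 2 were higher in the mutant and 0 lower, against 1.91% and 4.96% of all clusters. They were *Ikzf1*, which encodes the lymphoid and erythroid regulator Ikaros, at 6.79, 6.47 and 6.23 against 7.03, 6.73 and 7.09, and *Lmo2*, a partner of blood transcription factors, at 9.82, 9.69 and 9.59 against 9.90, 10.00 and 9.88. *Mecom*, a regulator of blood stem cells that endothelium also uses, had a difference of -0.35 (standard error 0.155, adjusted p = 0.694 by limma). Of the 19 genes 17 were lowest among the wildtypes in replicate 3, as were 58.9% of all clusters. The 10 measured cardiomyocyte genes were all above the mark, with a median difference of -0.10 and 0 at an unadjusted p under 0.05 by limma, and *Nppa*, a natriuretic peptide gene, and *Myocd* and *Nkx2-5*, both genes of cardiac transcription factors, were at 0.25, -0.14 and -0.18. The erythroid genes with the lowest p were *Cldn13* (1.75), *Rhd* (1.60) and *Trim10*, all 3 without overlap between the genotypes, and the other megakaryocyte gene with the lowest p after *Gfi1b* and *Nfe2* was *Rasgrp2* (-0.31), a signalling protein gene of platelets. In the other macrophage and myeloid genes, *Cd53* was at -0.26 and *Cd48*, near background, at -0.15. *Gzmb*, a lymphocyte protease gene, was at 0.25.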
